A study of Homo sapiens with 9 samples.

Results

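HeyA8 cells kept without glutamine beside cancer-associated fibroblasts were compared with HeyA8 cells fed complete medium and grown alone. HeyA8, also spelled Hey8A in the labels, is an established human ovarian cancer line. The comparison uses 6 of the 9 arrays of the study, 3 of the deprived coculture and 3 of the fed monoculture. The 3 arrays of HeyA8 cells deprived of glutamine without fibroblasts are set beside them where they help to place a value. In the coculture the fibroblasts, abbreviated CAFs, grew on inserts above the cancer cells in 6-well plates, so that the layers shared medium. All HeyA8 cells were in RPMI 1640 medium, which was renewed on day 4 with or without glutamine, and RNA was taken 24 h later. HeyA8 cells with fibroblasts in complete medium were not analysed here, so the effect of the fibroblasts and the effect of the missing glutamine cannot be told apart in this comparison alone. The labels do not say whether the 3 arrays of a group came from separate cultures, and the p-values therefore rest on the variation among these 6 arrays and the other 3, part or all of which may be technical.

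The values are log2 fluorescence intensities on Illumina bead arrays. A gene was represented by its brightest probe, among probes annotated to 1 gene symbol, and was kept when that probe's mean over the 9 arrays exceeded the median of all probe means, which was 7.4608. This left 10862 genes of the 18354 that had a named probe. Unexpressed genes sat near a floor of 7.4, and differences of genes close to it are compressed. The replicate arrays were alike. Correlations across all probes were 0.9969 to 0.9972 within the fed group and 0.997 to 0.9975 within the deprived coculture, against 0.9795 to 0.9812 between the groups.

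Glutamine supplies nitrogen for purines, pyrimidines, asparagine and amino sugars, and carbon for the tricarboxylic acid cycle. When an amino acid runs short, uncharged transfer RNA activates the kinase GCN2, which lowers translation initiation and raises synthesis of the transcription factor ATF4. ATF4 in turn induces amino acid transporters, aminoacyl-tRNA synthetases and asparagine synthetase. Sterol and fatty acid genes are driven by the SREBP transcription factors, and the genes of mitosis by the MMB-FOXM1 complex late in the cell cycle. Fibroblasts can make glutamine with glutamine synthetase and release it, which is why such cocultures are studied under deprivation.

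Deprived cocultured cells still differed from fed cells at many genes, mostly by small amounts. Limma called 4670 of the 10862 genes, 43.0%, at an adjusted p below 0.05. Of these, 2425 genes, 22.3%, were higher in the deprived coculture and 2245, 20.7%, were lower. The median size of a called difference was 1.24-fold, and the median 95% interval was 0.248 wide on the log2 scale, a precision that the number of arrays limits. Differences of at least 1.5-fold were called at 312 genes higher (2.87%) and 384 lower (3.54%). At 2-fold or more the counts were 77 higher and 127 lower, and at 4-fold or more 7 higher and 12 lower. Against a minimum of 1.2-fold, limma's treat test called 612 higher and 639 lower. The arrays of the 2 groups did not overlap at 2358 of the 2425 genes called higher and at 2176 of the 2245 called lower. These genes were called on the same arrays, so the small overlap follows largely from the call and is a description. The median difference over all genes was 0.01, and the range from the 5th to the 95th percentile ran from -0.49 to 0.47.

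Being close to the fed level was judged separately, since a gene that is not called need not be close. Of the 6101 genes with a mean level of at least 8, 2703 (44.3%) had a 95% interval of the difference that lay wholly within 0.32 on the log2 scale of 0 in either direction, a range called the close band below. Of the 6101, 129 were neither called nor in the close band. Another 337 genes were both called and in it, so their differences were resolved but small. Calls were commoner at brighter genes: 3606 of the 6101 were called, against 1064 of the 4761 tested genes with a mean under 8. Most gene lists below hold mainly genes of mean 8 or more. The called shares of all genes set beside them are not matched for level. For orientation, deprived monoculture differed from fed monoculture at 5898 genes (54.3%), and deprived coculture from deprived monoculture at 3022 genes (27.8%). The median absolute log2 difference from fed cells was 0.16 in deprived monoculture and 0.12 in the deprived coculture. The fed arrays are shared by both of these comparisons with fed cells.

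**Figure D1:**
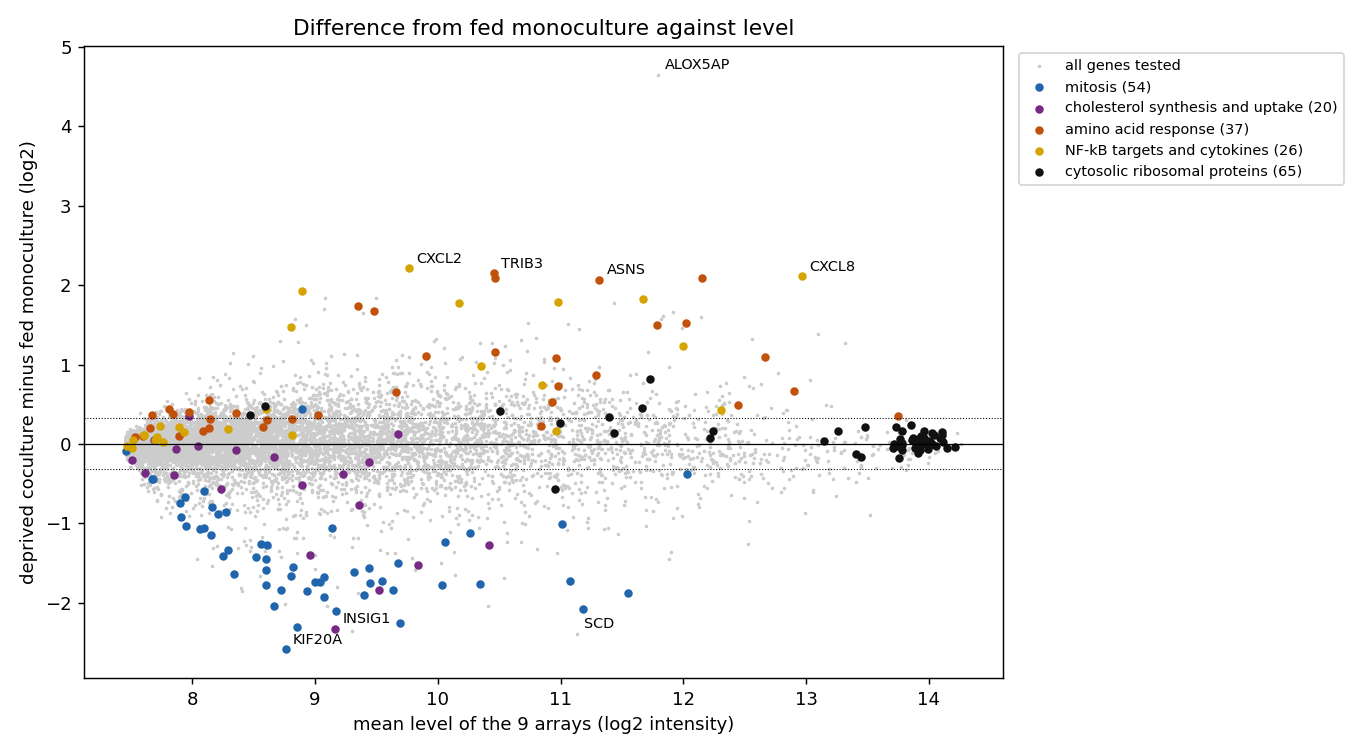
Each point is a gene, placed by its mean level over the 9 arrays (log2 intensity) and by the difference between deprived coculture and fed monoculture (log2). Colours mark 5 gene lists, dotted lines mark the close band, and most mitosis genes lie below it while most ribosomal protein genes lie between the lines.

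Among the 53 gene lists examined, the one with the most members still lower than in fed cells was the machinery of mitosis. Of 54 mitosis genes tested, 52 were called lower, 49 of them by at least 1.5-fold, against 20.7% and 3.54% of all genes. The median difference of the list was -1.53, against 0.01 over all genes. None of its 47 members with a mean level of at least 8 had an interval in the close band. In bulk RNA, fewer dividing cells and less of these RNAs per cell cannot be told apart.

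KIF20A, the mitotic kinesin needed for cytokinesis, was the most reduced gene among the 10862. Its levels were 10.71, 10.74 and 10.62 in the fed arrays and 8.09, 8.09 and 8.11 in the deprived coculture. The groups were far apart, with a difference of -2.59 (SE 0.06, 6.02-fold, adjusted p = 3.08e-17). Deprived monoculture stood lower still, at a mean of 7.50, which is near the floor. CDC20, the activator of the anaphase-promoting complex, had levels of 13.29, 13.19 and 13.26 in fed cells and 11.33, 11.03 and 11.13 in the deprived coculture. All 3 coculture arrays were well below the fed ones, by 2.08 on average (4.24-fold, adjusted p = 1.03e-14). In deprived monoculture CDC20 had a mean of 9.13, so the coculture value lay between the monocultures and differed from both (adjusted p = 9.75e-14 against deprived monoculture).

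The same order of levels, fed above deprived coculture above deprived monoculture, held for the mitotic genes named next. DLGAP5, a spindle assembly protein, was lower than fed by 4.93-fold, AURKA, the centrosomal Aurora kinase, by 4.78-fold, and HMMR, a spindle-associated protein, by 4.31-fold. BUB1, a kinase of the spindle checkpoint, was lower by 4.1-fold, TOP2A, the topoisomerase that untangles sister chromatids, by 3.59-fold and CDK1, the main mitotic cyclin-dependent kinase, by 3.41-fold. UBE2C, the ubiquitin-conjugating partner of the anaphase-promoting complex, had the means 12.33, 8.14 and 10.57 in fed monoculture, deprived monoculture and deprived coculture, and its difference from fed cells was -1.76 (adjusted p = 8.47e-15). PTTG3P, a pseudogene whose probe may also bind its parent securin, fell by 4.11-fold, and the probe of the securin gene PTTG1 by 3.32-fold.

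The exceptions in the mitosis list were few. ESPL1, which encodes separase, was the single member called higher, with levels of 8.64, 8.61 and 8.74 in fed cells and 9.03, 9.13 and 9.17 in the deprived coculture (difference 0.45, adjusted p = 1.64e-05). NCAPH, a condensin subunit, was not called and lay near the floor in all groups. The smallest called falls were those of BUB3 (-0.38), SMC4 (-0.44) and MKI67 (-0.45), and the MKI67 probe was dim, with a fed mean of 8.04.

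Promoters of mitosis genes are shown because many carry the cell cycle genes homology region, abbreviated CHR, the element through which the DREAM and MMB-FOXM1 complexes bind them. The letters TTTGAA were searched on both strands in the RefSeq windows from 250 bases before to 50 bases after each start (GRCh38.p14). A window was available for 45 of the 54 mitosis genes, and 36 of these, 80.0%, held the letters in at least 1 window. Among all 8743 tested genes with a window 1223 held them, and among all 35116 windows the share was 15.2%. Of the 317 genes with a window that were at least 1.5-fold lower, 107 (33.8%) held them, and of the 252 that were at least 1.5-fold higher, 25 (9.92%). ESPL1, the member that was higher, held them too, while none of the 35 DNA replication genes with a window did. Below are the 250 bases before the start of CDC20 (chr1:43358731-43358980, plus strand) and of DLGAP5 (chr14:55191586-55191835, minus strand), 5′ to 3′ along the gene, with the matches in capitals.
CDC20: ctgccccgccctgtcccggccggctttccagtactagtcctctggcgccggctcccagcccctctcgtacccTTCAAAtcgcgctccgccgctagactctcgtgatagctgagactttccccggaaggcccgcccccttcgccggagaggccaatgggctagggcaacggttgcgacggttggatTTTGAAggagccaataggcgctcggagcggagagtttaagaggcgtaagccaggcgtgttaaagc
DLGAP5: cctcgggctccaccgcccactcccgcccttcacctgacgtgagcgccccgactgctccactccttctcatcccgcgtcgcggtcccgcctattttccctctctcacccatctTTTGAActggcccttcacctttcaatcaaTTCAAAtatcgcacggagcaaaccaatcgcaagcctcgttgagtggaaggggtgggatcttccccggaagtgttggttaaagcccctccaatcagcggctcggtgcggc
TTCAAA is the same element read on the other strand. The matches in CDC20 begin 178 and 65 bases before the start, and those in DLGAP5 138 and 109 bases before it. A match is a description of these letters and not a measured binding site.

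DNA replication genes were also lower, but by less than the mitotic genes. Of 41 tested, 37 were called lower and none higher, 22 of them by at least 1.5-fold, against 20.7% and 3.54% of all genes, with a median of -0.64. PCLAF, a PCNA-binding factor, fell by 1.44 on the log2 scale, GINS2, a subunit of the replicative helicase, by 1.43 and MCM6, of the same helicase, by 1.12. PCNA itself, the sliding clamp, had levels of 11.50, 11.67 and 11.46 in fed cells and 10.78, 10.91 and 10.81 in the deprived coculture, a fall of 1.64-fold (adjusted p = 4.9e-08). It was also lower in the deprived coculture than in deprived monoculture, whose mean was 11.08 (adjusted p = 0.0105). POLD2, RFC1 and RPA2, which are subunits of a polymerase, the clamp loader and the single-strand binding complex, had intervals in the close band, although POLD2, at -0.16, was called under several alternatives, among them without the first fed array (-0.20) or the third coculture array (-0.21).

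Among the 79 genes that were at least 4-fold lower in deprived than in fed monoculture, several replication and nucleotide genes were closest to the fed level in the coculture. UHRF1, which couples DNA methylation to replication, had levels of 11.21, 11.39 and 11.38 in fed cells, 9.001, 9.09 and 8.76 in deprived monoculture and 10.52, 10.34 and 10.57 in the deprived coculture. The coculture arrays remained below the fed ones, by 0.85 on the log2 scale (1.8-fold, adjusted p = 7.04e-08). FEN1, the flap endonuclease, stayed 1.86-fold below fed cells, MCM4 1.88-fold, the ribosomal protein paralogue RPL39L 1.97-fold and RRM1, the large subunit of ribonucleotide reductase, 1.99-fold. Those furthest from fed cells were KIF20A, SCD, CDKN3, INSIG1 and DLGAP5, at differences from -2.59 to -2.30. Because the members were selected on the fed and deprived arrays, this ordering is a description.

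Of 20 nucleotide synthesis genes tested, 13 were lower and 1 higher, against 20.7% and 22.3% of all genes, and 8 of 19 with a mean of at least 8 were in the close band, near the 44.3% of all genes. Among the larger falls were those of enzymes that make deoxynucleotides: TYMS, thymidylate synthase, fell by 3.23-fold, TK1, thymidine kinase, by 2.54-fold and RRM2 by 1.68-fold. GMPS, which uses glutamine to make GMP, fell by 0.70 on the log2 scale, and the purine enzymes GART and IMPDH2 by 0.19 and 0.18. Some enzymes of de novo purine synthesis were close to fed cells. PFAS, which also uses glutamine, had levels of 10.14, 10.19 and 10.21 in fed cells and 10.23, 10.21 and 10.11 in the deprived coculture, a difference of 0.01 with a 95% interval from -0.13 to 0.14. PPAT and ADSL, the first and a later step of the purine pathway, had intervals in the close band at differences of -0.10 and -0.08.

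Cell cycle entry genes did not move together. Of 21 tested, 6 were higher, 9 lower and 6 not called, with a median of -0.11. Over all genes 22.3% were higher and 20.7% lower. CDKN3, a phosphatase that acts on cyclin-dependent kinases, fell by 5.13-fold, cyclin A gene CCNA2 by 1.80 on the log2 scale and the mitotic transcription factor FOXM1 by 1.21. CCND1, cyclin D1, was higher, with levels of 11.998, 11.90 and 11.96 in fed cells and 12.33, 12.34 and 12.31 in the deprived coculture (1.29-fold, adjusted p = 1.72e-05). CDK4, its kinase partner, had a difference of -0.01 and an interval in the close band. MYC was above fed cells at 1.34-fold, with means of 11.46 in fed monoculture, 12.33 in deprived monoculture and 11.88 in the deprived coculture.

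Several other lists had many members that were lower, against 20.7% of all genes. Of 18 homologous recombination and Fanconi genes, 15 were lower and none higher, with a median of -0.47, led by RAD51AP1 at -1.09 and with BRCA1 at -0.51. Of 14 nuclear lamina and HMG genes, 9 were lower and 2 higher, and HMGB2, a chromatin protein abundant in dividing cells, had the largest difference at -1.45. Of 12 tubulin and stathmin genes, 9 were lower and none higher, led by the beta-tubulin TUBB4B at -1.65. Of 32 splicing genes, 20 were lower and 3 higher, with a median of -0.25. HNRNPH1, an RNA-binding splicing regulator, had the largest fall there at -0.91 by its brightest probe, while its other probes gave -0.80 and -0.35. For HNRNPA2B1 the brightest probe gave -0.65 and a second probe 0.08, so that gene's probes disagree.

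**Figure D2:**
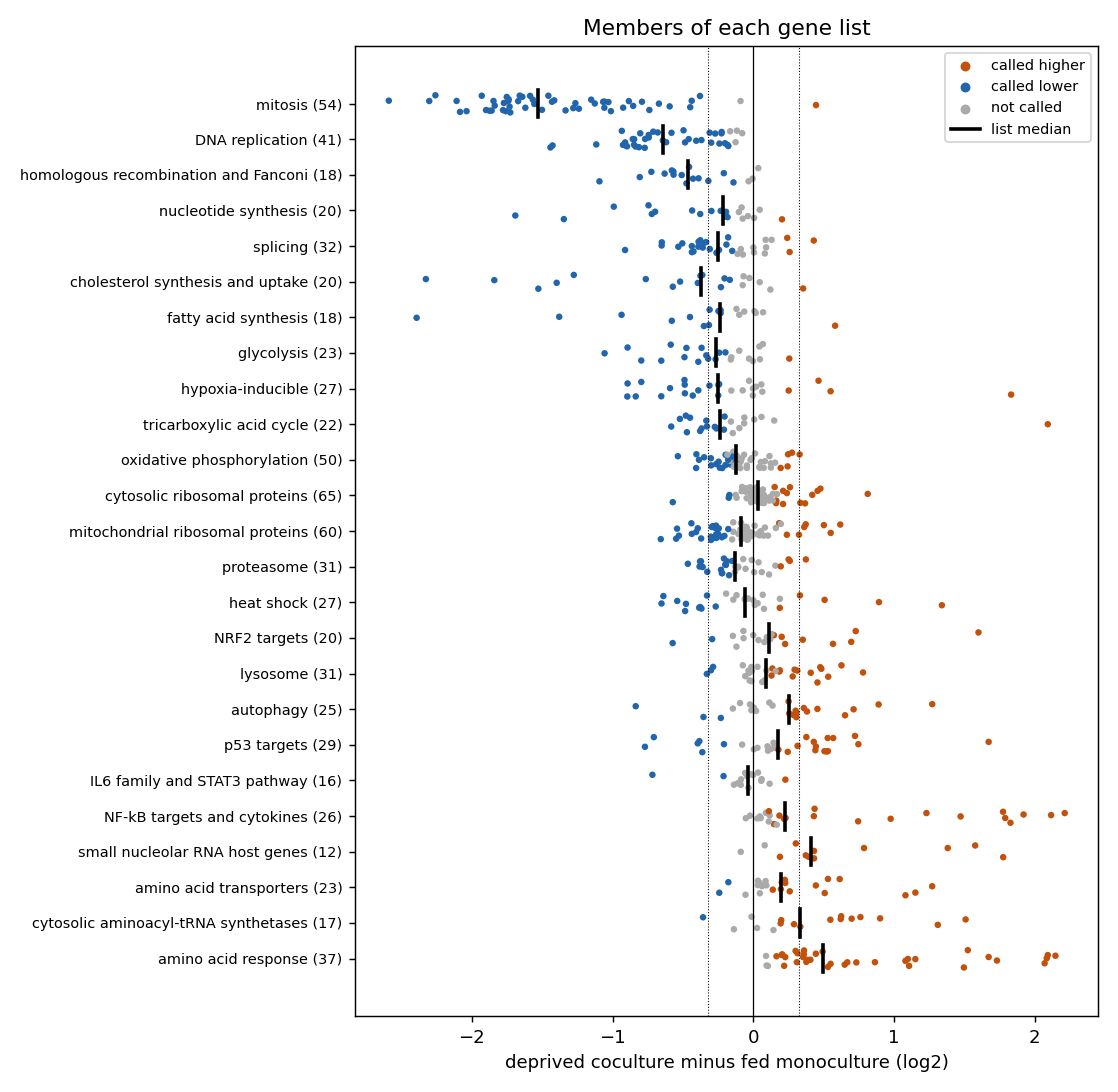
Each point is a gene of the list named at the left, with the number tested in parentheses, placed by its difference between deprived coculture and fed monoculture (log2). Colours mark called higher, called lower and not called, black bars mark list medians and dotted lines the close band, and medians run from -1.53 for mitosis to 0.49 for the amino acid response.

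Lipid synthesis genes were another group that remained low. INSIG1, the sterol-regulated brake on SREBP processing, had levels of 10.68, 10.78 and 10.66 in fed cells and 8.41, 8.42 and 8.32 in the deprived coculture. The difference was -2.33 (SE 0.07, 5.01-fold, adjusted p = 7.27e-16), and the deprived monoculture mean of 8.41 was not distinguished from the coculture mean of 8.38 (difference -0.03, adjusted p = 0.809). SCD, the stearoyl-CoA desaturase that makes monounsaturated fatty acids, had levels of 12.87, 12.87 and 12.75 in fed cells and 10.497, 10.39 and 10.43 in the deprived coculture (5.25-fold lower, adjusted p = 2.89e-16). Deprived monoculture was slightly lower, at a mean of 10.14.

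Of 20 cholesterol synthesis and uptake genes, 14 were lower, 6 of them by at least 1.5-fold, and 1 was higher, with a median of -0.37. Over all genes 20.7% were lower and 3.54% by that fold. ACAT2, acetyl-CoA acetyltransferase, fell by 3.58-fold, MSMO1, a sterol demethylase, by 2.88-fold, HMGCS1, the HMG-CoA synthase, by 2.63-fold and SQLE, squalene epoxidase, by 2.42-fold. SQLE was lower in the deprived coculture than in deprived monoculture too, by 0.21 on the log2 scale (adjusted p = 0.0137). Of 18 fatty acid synthesis genes, 11 were lower, against the same 20.7%, and 1 higher, with a median of -0.24. FASN, fatty acid synthase, fell by 2.6-fold and LPIN1, a phosphatidate phosphatase, by 1.91-fold. ACSS2, which makes acetyl-CoA from acetate, was the member called higher, at 0.58.

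Unlike INSIG1, some regulators of this pathway had intervals in the close band. SREBF1 had levels of 8.06, 8.11 and 8.21 in fed cells and 8.04, 8.06 and 8.09 in the deprived coculture, with an interval of the difference from -0.18 to 0.05. SCAP, the escort protein of SREBP, and INSIG2 also had intervals in the close band, at 0.12 and -0.08. The SREBF1 levels above and the INSIG2 mean of 8.36 lay within 1 log2 unit of the floor, where differences are compressed. The letters TCACNCCAC, a short form of the sterol regulatory element, were in the windows of 1 of the 18 cholesterol genes that had one, SREBF2, and of 1 of 17 fatty acid genes, ACSL1, against 1.45% of all tested genes. The SREBF2 and ACSL1 differences were 0.05, not called, and -0.23. For the other genes the search says only that this form of the letters is not in these windows.

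Glycolytic genes were lower in the same way, with coculture levels like those of deprived monoculture for the genes with the largest falls. Of 23 tested, 14 were lower and 1 higher, against 20.7% and 22.3% of all genes, with a median of -0.27. PGAM1, phosphoglycerate mutase, fell by 2.08-fold (adjusted p = 1.16e-09), LDHA, lactate dehydrogenase, by 1.86-fold and SLC2A1, the glucose transporter GLUT1, by 1.74-fold. LDHA levels were 14.06, 14.13 and 14.14 in fed cells, 13.23, 13.28 and 13.24 in deprived monoculture and 13.27, 13.20 and 13.19 in the deprived coculture. SLC2A3, the neuronal-type glucose transporter GLUT3, behaved differently from SLC2A1. Its levels were 10.26, 10.14 and 9.95 in fed cells, 11.12, 11.10 and 11.14 in deprived monoculture and 10.17, 10.15 and 10.03 in the deprived coculture, so the coculture arrays fell within the fed range (95% interval from -0.15 to 0.15). GAPDH was also in the close band, at a difference of 0.05. Its mean level of 13.84 lay near the top of the scale, where differences are compressed.

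Hypoxia-inducible genes, several of them glycolytic, were lower at 15 of 27 and higher at 4, against 20.7% and 22.3% of all genes. NDRG1, a stress-responsive gene, and ADM, the vasodilator adrenomedullin, were below both monocultures and are described with the other such genes. BNIP3, a mitophagy receptor, fell by 1.78-fold. ANGPTL4, a secreted inhibitor of lipoprotein lipase, went the other way, with levels of 8.28, 8.17 and 8.17 in fed cells and 9.97, 10.12 and 10.03 in the deprived coculture (3.56-fold higher, adjusted p = 1.22e-14). A second ANGPTL4 probe that was dimmer gave 0.51, against 1.83 for the brightest. The hypoxia factor genes HIF1A and EPAS1 were higher by 0.25 and 0.46.

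Tricarboxylic acid cycle genes were lower at 13 of 22, against 20.7% of all genes, none of them by 1.5-fold. The largest falls were those of SUCLG2 (-0.58), SUCLA2 (-0.52) and SUCLG1 (-0.48), which together encode succinyl-CoA synthetase. PCK2, the mitochondrial phosphoenolpyruvate carboxykinase and a known ATF4 target, was the 1 member that was higher, at 4.26-fold. In the pentose phosphate list, PGLS, the lactonase, was 2.1-fold above fed cells and TALDO1, transaldolase, was higher by 0.73, while TKT, transketolase, was lower at -0.57. PGLS was also above deprived monoculture, by 0.27 (adjusted p = 0.00282).

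**Figure D3:**
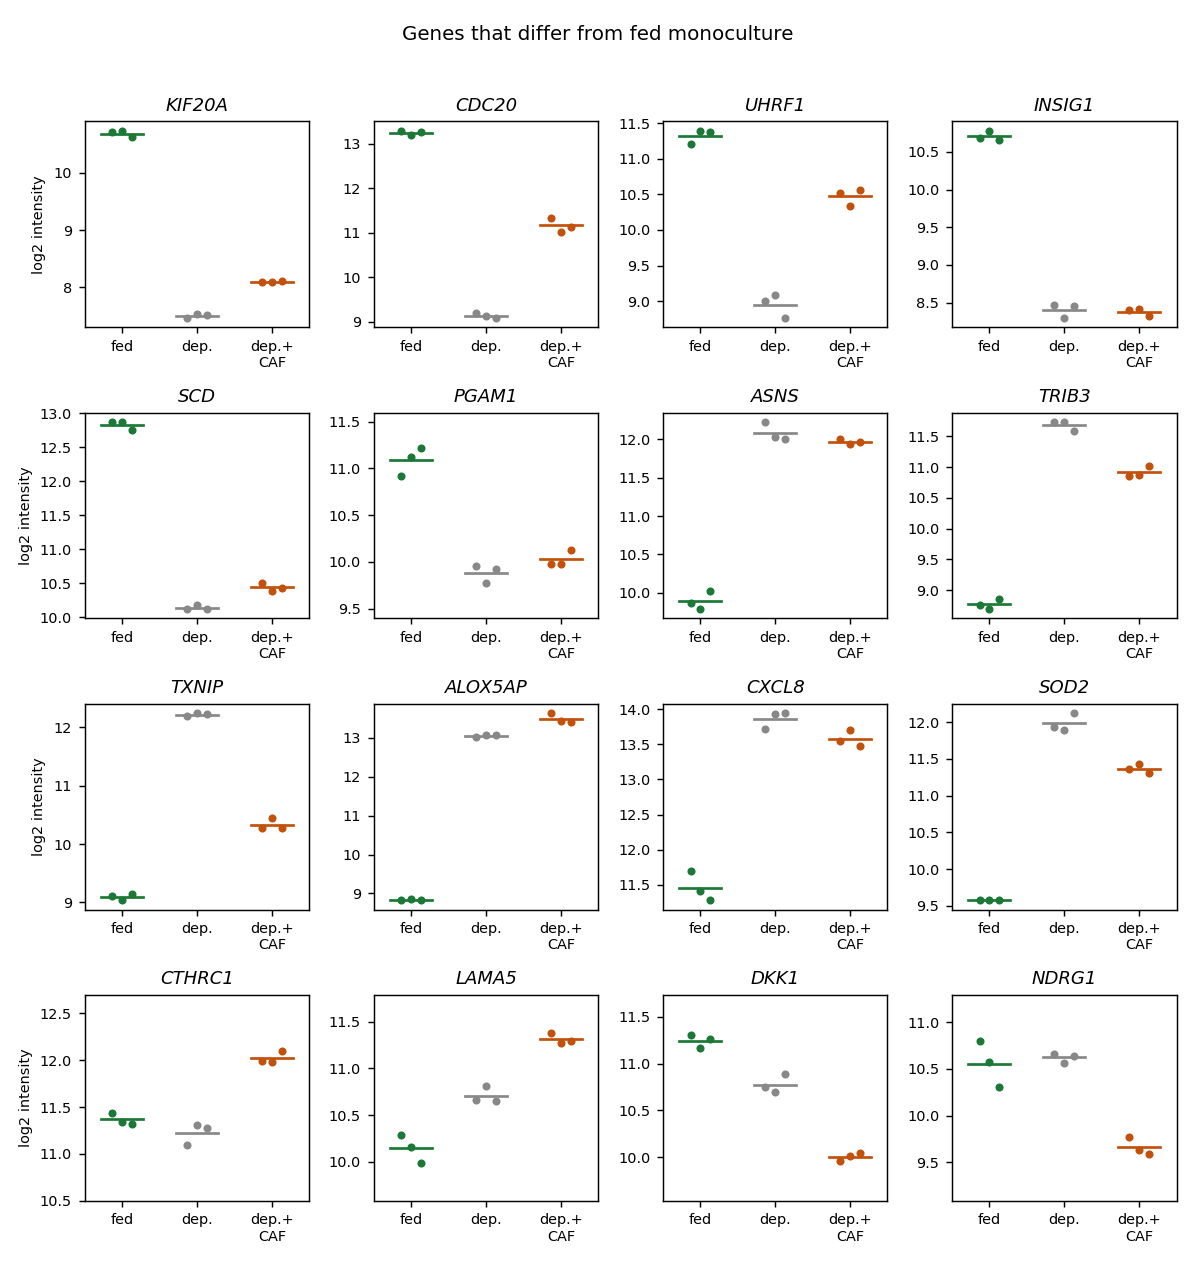
Levels (log2 intensity) of 16 genes in each array of fed monoculture, deprived monoculture (dep.) and deprived coculture (dep.+CAF); points are arrays and bars are group means. In all 16 genes the coculture points lie apart from the fed points, from 25.1-fold higher for ALOX5AP to 6.02-fold lower for KIF20A.

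The amino acid response was the list with the most members above fed cells. Of 37 genes tested, 34 were called higher and none lower, against 22.3% and 20.7% of all genes, and 16 were higher by at least 1.5-fold, against 2.87%. The median difference was 0.49. Only VLDLR, at 0.16, had an interval in the close band among the 29 members with a mean of at least 8, and VLDLR was not called without the third fed array (0.15) or the third coculture array (0.14).

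ASNS, asparagine synthetase, had levels of 9.87, 9.79 and 10.03 in fed cells and 12.001, 11.93 and 11.96 in the deprived coculture. The groups were 4.2-fold apart (difference 2.07, SE 0.07, adjusted p = 1.15e-14). In deprived monoculture ASNS was at 12.22, 12.03 and 12.001, a mean difference from the coculture of 0.12 that was not called (adjusted p = 0.251). TRIB3, a pseudokinase induced by ATF4, had levels of 8.76, 8.69 and 8.86 in fed cells and 10.86, 10.88 and 11.02 in the deprived coculture, which is 4.43-fold higher. DDIT3, the transcription factor CHOP, was 3.32-fold higher at levels of 9.42, 9.59 and 9.50 against 7.68, 7.72 and 7.91. Unlike ASNS, both TRIB3 and DDIT3 were lower in the deprived coculture than in deprived monoculture, by 0.77 and 1.28 (adjusted p = 6.04e-08 and 3.59e-11).

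Other members lay at various distances from fed cells. DDIT4, an inhibitor of the kinase mTORC1, was 4.24-fold above fed cells, GDF15, a stress-induced secreted factor, 3.19-fold, and PSAT1, an enzyme of serine synthesis, 2.88-fold. PSAT1 was also higher in the deprived coculture than in deprived monoculture (12.59 against 12.40, adjusted p = 0.0184). ATF3, another stress transcription factor, was 1.24-fold higher at 7.91, 7.95 and 8.04 against 7.58, 7.70 and 7.68, all within 1 log2 unit of the floor, while its deprived monoculture mean was 8.82. ATF4 itself, which is regulated mainly by translation, was 1.28-fold higher (adjusted p = 1.49e-05). CHAC1, a glutathione-degrading enzyme, was 1.28-fold higher and SLC7A11, the cystine transporter, 1.15-fold higher, but both probes lay within 1 log2 unit of the floor.

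ATF4 acts through the C/EBP-ATF response element, abbreviated CARE, and a short form of its letters was searched. Here too a match describes letters and is not a measured binding site. The letters TGATGNAA, on either strand, were in a start window of 8 of the 31 amino acid response genes with a window (25.8%) and of 6 of 14 cytosolic aminoacyl-tRNA synthetase genes (42.9%). The share was 2.87% among all tested genes, 4.76% among those at least 1.5-fold higher and 3.47% among those at least 1.5-fold lower. The 250 bases before the start are shown for ASNS (chr7:97872409-97872658, minus strand), the member with the letters that rose most, and for CHAC1 (chr15:40953221-40953470, plus strand), with the match in capitals.
ASNS: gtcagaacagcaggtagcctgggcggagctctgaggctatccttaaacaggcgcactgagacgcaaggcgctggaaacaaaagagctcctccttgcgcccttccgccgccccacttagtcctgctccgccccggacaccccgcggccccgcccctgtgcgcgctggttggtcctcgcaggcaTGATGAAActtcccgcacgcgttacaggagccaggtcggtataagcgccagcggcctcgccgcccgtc
CHAC1: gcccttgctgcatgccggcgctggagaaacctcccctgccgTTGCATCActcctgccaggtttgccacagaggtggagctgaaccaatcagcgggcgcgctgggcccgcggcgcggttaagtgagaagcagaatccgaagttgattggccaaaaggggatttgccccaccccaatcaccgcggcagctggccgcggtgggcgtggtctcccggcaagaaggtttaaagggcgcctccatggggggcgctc
The match begins 68 bases before the start in ASNS and 209 bases before it in CHAC1, where it is read on the opposite strand. TRIB3, DDIT3 and PCK2 had no match to these letters in their windows, which says only that these letters are not in these windows.

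Among the synthetases that charge transfer RNA, 12 of 17 cytosolic enzymes were higher and 1 lower, against 22.3% and 20.7% of all genes. Of the 12, 7 were higher by at least 1.5-fold, against 2.87% of all genes. WARS1, for tryptophan, was 2.85-fold higher and SARS1, for serine, 2.48-fold. KARS1, for lysine, was the one called lower (-0.36). QARS1, the glutamine enzyme, had levels of 11.58, 11.69 and 11.77 in fed cells and 11.86, 11.75 and 11.86 in the deprived coculture, with an interval from 0.01 to 0.28 that lay in the close band. Without the third fed array the QARS1 difference was called, at 0.19. Of 15 mitochondrial enzymes, 3 were higher and 5 lower, none by 1.5-fold in either direction. A difference between the compartments was not tested.

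Amino acid transporters were higher at 13 of 23 and lower at 2, against 22.3% and 20.7% of all genes. SLC1A5, the main glutamine importer, had levels of 9.51, 9.66 and 9.45 in fed cells and 10.93, 10.66 and 10.85 in the deprived coculture (2.41-fold higher, adjusted p = 3.2e-11). Its deprived monoculture mean, 10.98, was not distinguished from the coculture mean of 10.81 (adjusted p = 0.106). SLC3A2 and SLC7A5, the subunits of the LAT1 transporter, which imports leucine and its like, were 2.22-fold and 2.12-fold above fed cells and below deprived monoculture by 0.58 and 0.70. A second, dimmer SLC3A2 probe gave 0.33 in place of 1.15.

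Of 24 genes that handle glutamine and glutamate, 12 were higher, against 22.3% of all genes. The 5 that were lower and the 9 of 20 in the close band are near the shares of all genes, 20.7% and 44.3%. GLUD1, glutamate dehydrogenase, had levels of 10.69, 10.69 and 10.77 in fed cells and 10.56, 10.53 and 10.62 in the deprived coculture, a difference of -0.14 that was not called although the arrays did not overlap (adjusted p = 0.0981). GOT1, the cytosolic aspartate aminotransferase, was 1.62-fold higher and GOT2, the mitochondrial one, lower at -0.41. The GLUL probe, for glutamine synthetase, read 7.47, 7.55 and 7.36 in fed cells and 7.38, 7.54 and 7.42 in the deprived coculture, all at the floor, so it gives no level to compare.

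Serine and one-carbon genes divided between called higher (7 of 16) and called lower (6 of 16), against 22.3% and 20.7% of all genes. PHGDH, the first enzyme of serine synthesis, was 1.59-fold higher, MTHFD2, a mitochondrial folate enzyme, 1.66-fold and SHMT2, mitochondrial serine hydroxymethyltransferase, 1.41-fold. SHMT1, its cytosolic counterpart, was lower by -0.84. Host genes of small nucleolar RNAs, whose spliced RNAs are degraded during translation, were higher at 10 of 12, against 22.3% of all genes, and lower at none. EPB41L4A-AS1 was higher by 1.78 on the log2 scale, SNHG5 by 1.58 and ZFAS1 by 1.38, all with coculture levels close to those of deprived monoculture, where the differences from fed cells were 1.87, 1.74 and 1.53. EPB41L4A-AS1 and ZFAS1 are antisense genes, and whether the probes read 1 strand was not tested.

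Inflammatory genes formed another group above fed cells. Of 26 NF-kB targets and cytokines, 17 were higher and none lower, and 10 were higher by at least 1.5-fold, against 22.3% higher and 2.87% by that fold over all genes. The median was 0.22, and 11 of the 26 had a mean level under 8, where differences are compressed. CXCL8, the neutrophil attractant interleukin 8, had levels of 11.70, 11.41 and 11.28 in fed cells, 13.72, 13.93 and 13.94 in deprived monoculture and 13.55, 13.71 and 13.47 in the deprived coculture. The coculture arrays were 4.33-fold above the fed ones (adjusted p = 1.24e-13). CXCL2, a related chemokine, was 4.63-fold higher, with a coculture mean of 10.49 that was not distinguished from the deprived monoculture mean of 10.53 (adjusted p = 0.703).

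Of the other cytokine genes, CSF3, the granulocyte colony-stimulating factor, was 3.79-fold above fed cells, IL1B, interleukin 1 beta, 3.55-fold and IL6, interleukin 6, 2.78-fold. IL6 levels were 7.49, 7.48 and 7.47 in fed cells, at the floor, 9.95, 10.04 and 10.01 in deprived monoculture and 8.95, 9.002 and 8.90 in the deprived coculture. The coculture arrays therefore lay between the monocultures without overlap with either, and the fold is taken against fed arrays at the floor. SOD2, the mitochondrial superoxide dismutase and an NF-kB target, was 3.46-fold higher by its brightest probe (difference 1.79), and a dimmer probe gave 0.83. IRF1, an interferon regulatory factor, was in the close band at 0.12.

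The letters GGNNTTTCC, a form of the kB site that NF-kB proteins bind, were in a start window of 16 of 22 genes of this list (72.7%), against 9.36% of all tested genes and 10.3% of those at least 1.5-fold higher. Both strands were searched. The list was made of NF-kB targets, so a high share follows partly from its making. A match to these letters is, again, not a measured binding site. The 250 bases before the starts of the 2 chemokine genes with the largest rises are shown, CXCL8 (chr4:73740319-73740568, plus strand) and CXCL2 (chr4:74099196-74099445, minus strand), with the matches in capitals.
CXCL8: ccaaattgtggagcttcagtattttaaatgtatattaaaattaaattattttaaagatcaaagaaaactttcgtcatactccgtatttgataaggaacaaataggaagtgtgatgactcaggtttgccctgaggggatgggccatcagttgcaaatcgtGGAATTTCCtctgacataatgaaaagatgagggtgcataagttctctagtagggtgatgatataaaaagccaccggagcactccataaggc
CXCL2: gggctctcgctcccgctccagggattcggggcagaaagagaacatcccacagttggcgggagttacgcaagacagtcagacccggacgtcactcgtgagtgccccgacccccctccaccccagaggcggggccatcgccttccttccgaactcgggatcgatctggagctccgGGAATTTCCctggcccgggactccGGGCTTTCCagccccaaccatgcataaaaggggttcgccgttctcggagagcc
The match begins 91 bases before the start in CXCL8, and the matches in CXCL2 begin 77 and 53 bases before it. CCL20, CXCL6 and REL also held the letters and were not called in this comparison.

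Closeness could be judged for only 7 of the 16 genes of the IL6 family and STAT3 pathway. Of these, 6 were in the close band, against 44.3% of all genes with a mean of at least 8. The other members had means under 8, where differences are compressed. Of all 16, 1 was higher and 2 were lower, against 22.3% and 20.7% of all genes. STAT3 had levels of 8.62, 8.69 and 8.59 in fed cells and 8.54, 8.56 and 8.46 in the deprived coculture (interval from -0.26 to 0.04). JAK1 was in the close band at -0.06. IL6ST, the shared receptor chain, was called higher at 1.17-fold, and SOCS1, a feedback inhibitor, was lower by -0.72. SOCS3, the feedback inhibitor that STAT3 induces, lay near the floor in all groups.

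ALOX5AP had the largest difference of any gene tested. It encodes the protein that presents arachidonic acid to 5-lipoxygenase for leukotriene synthesis and is best known in leukocytes. Its levels were 8.83, 8.86 and 8.82 in fed cells, 13.01, 13.07 and 13.08 in deprived monoculture and 13.63, 13.43 and 13.40 in the deprived coculture. The difference from fed cells was 4.65 (SE 0.06, 25.1-fold, adjusted p = 6.45e-21), and the coculture was also above deprived monoculture by 0.44 (adjusted p = 3.37e-05). Of 11 leukocyte markers with a probe, 8 were at or below the floor edge of 7.48 in the deprived coculture and 7 in fed cells, PTPRC and CD14 among them. CD68, a lysosomal protein of macrophages that other cells also make, read 10.445, 10.38 and 10.37 in fed cells and 11.001, 11.09 and 10.77 in the deprived coculture.

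Members of other stress pathways were also above fed cells. Of 20 NRF2 targets, 8 were higher and 2 lower, against 22.3% and 20.7% of all genes, and 9 of 17 with a mean of at least 8 were in the close band, against 44.3%. NQO1, a quinone reductase, was 3.03-fold above fed cells and SRXN1, sulfiredoxin, 1.62-fold. HMOX1, heme oxygenase, had a mean of 7.78 in fed cells and 7.78 in the deprived coculture, but 8.45 in deprived monoculture. SQSTM1, the autophagy receptor p62, was 2.41-fold higher, and MAP1LC3B, the autophagosome protein LC3B, was higher by 0.89. Of 25 autophagy genes, 14 were higher and 3 lower, and of 31 lysosome genes, 14 were higher and 3 lower, to be read against the same 22.3% and 20.7%. CTSB, cathepsin B, led the lysosome list at 0.78, while ATP6V1B2, a proton pump subunit, was in the close band with means of 10.49 in fed cells, 11.16 in deprived monoculture and 10.46 in the deprived coculture.

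Of 29 p53 targets, 15 were higher and 6 lower, against 22.3% and 20.7% of all genes, with a median of 0.18, and GDF15 was the only one above 2-fold. XPC, a DNA damage sensor, was higher by 0.75 and TP53INP1, a p53 cofactor, by 0.72, while CCNG1, cyclin G1, was lower by -0.77. Heat shock genes were lower at 10 of 27 and higher at 5, against 20.7% and 22.3% of all genes. Of the 27, 24 had a mean of at least 8, where calls are commoner. HSPA1B and HSPA1A, near-identical copies of inducible HSP70 whose probes may bind either RNA, were higher by 1.34 and 0.89. The chaperone genes HSPE1 and HSP90AB1 were lower by -0.64 and -0.54. HSPA5, the chaperone BiP that reports stress in the endoplasmic reticulum, was in the close band at 0.01 (interval from -0.12 to 0.15).

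TXNIP, an inhibitor of glucose uptake that responds to sugar phosphates, was the gene closest to fed cells among the 21 that were at least 4-fold higher in deprived than in fed monoculture. Its levels were 9.11, 9.04 and 9.14 in fed cells, 12.19, 12.24 and 12.22 in deprived monoculture and 10.27, 10.45 and 10.28 in the deprived coculture. It was still 2.36-fold above fed cells (adjusted p = 5.24e-12). The next closest were CLDN1, a tight junction protein, IL6, PPP1R15A, which restores translation after stress, and MKNK2, a kinase of the initiation factor eIF4E, at 2.73-fold, 2.78-fold, 2.82-fold and 2.86-fold. The IL6 fold is taken against fed arrays at the floor and may be larger, so its place in this order is not settled. The furthest were ALOX5AP, CXCL2, TRIB3, CXCL8 and PCK2. FTH1P3, a ferritin heavy chain pseudogene whose probe may bind the parent RNA, was 3.15-fold above fed cells at means of 10.27, 13.54 and 11.93 in fed monoculture, deprived monoculture and deprived coculture.

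Some genes stood outside both monocultures. The 5 whose coculture arrays lay furthest above all 6 monoculture arrays were CTHRC1, MDK, COL7A1, ADTRP and LAMA5, ranked by the gap between arrays and so described without a test of that choice. CTHRC1, a secreted collagen triple helix protein, had levels of 11.43, 11.35 and 11.32 in fed cells, 11.09, 11.31 and 11.28 in deprived monoculture and 11.99, 11.98 and 12.10 in the deprived coculture. MDK, the heparin-binding growth factor midkine, had means of 10.32, 10.05 and 11.03, and COL7A1, the collagen of anchoring fibrils, 7.87, 7.98 and 8.58. LAMA5, a laminin chain of basement membranes, had means of 10.14, 10.71 and 11.32, a rise over fed cells of 1.17 on the log2 scale. ADTRP, an androgen-dependent hydrolase of fatty acid esters of hydroxy fatty acids, had means of 9.63, 9.85 and 10.36.

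The 5 whose coculture arrays lay furthest below all monoculture arrays were DKK1, NDRG1, ADM, HSPA4 and UAP1. DKK1, a secreted inhibitor of Wnt signalling, had levels of 11.31, 11.16 and 11.26 in fed cells, 10.74, 10.69 and 10.89 in deprived monoculture and 9.96, 10.01 and 10.05 in the deprived coculture, 2.36-fold below fed cells. NDRG1 had levels of 10.79, 10.57 and 10.30 in fed cells and 9.77, 9.63 and 9.58 in the deprived coculture. Its deprived monoculture mean of 10.62 was not distinguished from the fed mean of 10.56 (adjusted p = 0.575). ADM had means of 10.62, 10.81 and 10.02, HSPA4, an HSP70 nucleotide exchange factor, 10.65, 10.41 and 9.9997, and UAP1, which makes UDP-N-acetylglucosamine, 12.53, 12.62 and 12.11. A second, dimmer HSPA4 probe, with a mean of 7.86, gave a difference from fed cells of 0.01, against -0.65 for the brightest.

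Adhesion and matrix genes included members on both sides. Of 26 extracellular matrix and mesenchymal genes, 6 were higher and 7 lower, shares near the 22.3% and 20.7% of all genes. TIMP1, an inhibitor of metalloproteinases, was higher by 1.46 and the transcription factor SNAI2 by 0.89, while PLAU, the urokinase protease, was lower by -0.73. Of 12 integrin and laminin genes, 5 were higher and 4 lower, against the same shares, with ITGA3 at 0.82 and ITGA6 at -0.99. CCN2, a target of YAP and TGF-beta, was lower by -1.08, and TGFBI, a TGF-beta-induced matrix protein, was higher by 0.23 with means of 12.003, 10.86 and 12.23 in fed monoculture, deprived monoculture and deprived coculture. VIM, vimentin, had levels of 14.11, 14.10 and 14.05 in fed cells and 14.09, 14.19 and 14.07 in the deprived coculture, in the close band. These levels are near the top of the scale, where differences are compressed.

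Markers of epithelial ovarian cancer cells were not all held at the fed level. Of 7 tested, 5 were lower and none higher, against 20.7% and 22.3% of all genes. PAX8 had means of 9.23 in fed cells, 8.51 in deprived monoculture and 9.02 in the deprived coculture, and MUC16 was near the floor in every group. KRT8 had levels of 10.95, 11.01 and 11.23 in fed cells and 10.11, 10.04 and 10.16 in the deprived coculture, 1.94-fold lower, and KRT18, its partner keratin, was lower by -0.66. KRT7 was in the close band, with means of 10.42 in fed cells, 9.73 in deprived monoculture and 10.51 in the deprived coculture. CDH5, an adhesion gene used as an endothelial marker, read 9.71, 9.80 and 9.78 in fed cells and 7.85, 7.93 and 7.95 in the deprived coculture, a fall of 1.85 on the log2 scale, while VWF, KDR and PECAM1 were near the floor in every group.

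Because fibroblasts shared the wells, their marker genes were read on the same arrays. Of 14 markers, 9 were at or below the floor edge in the deprived coculture and 9 in fed cells. Decorin (DCN), lumican (LUM), COL3A1, PDGFRA, PDGFRB, POSTN and THY1 had coculture means from 7.36 to 7.41, at the floor. The mean marker level per array was 7.717 to 7.725 in fed cells, 7.731 to 7.734 in deprived monoculture and 7.731 to 7.754 in the deprived coculture. ACTA2, which HeyA8 cells also made without fibroblasts, was 1.92-fold above fed cells, with means of 10.19 in fed cells, 11.73 in deprived monoculture and 11.13 in the deprived coculture. FBLN1 and FAP were lower than in fed cells, by -0.42 and -0.17, and without the second fed array FAP was not called, at -0.10.

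**Figure D4:**
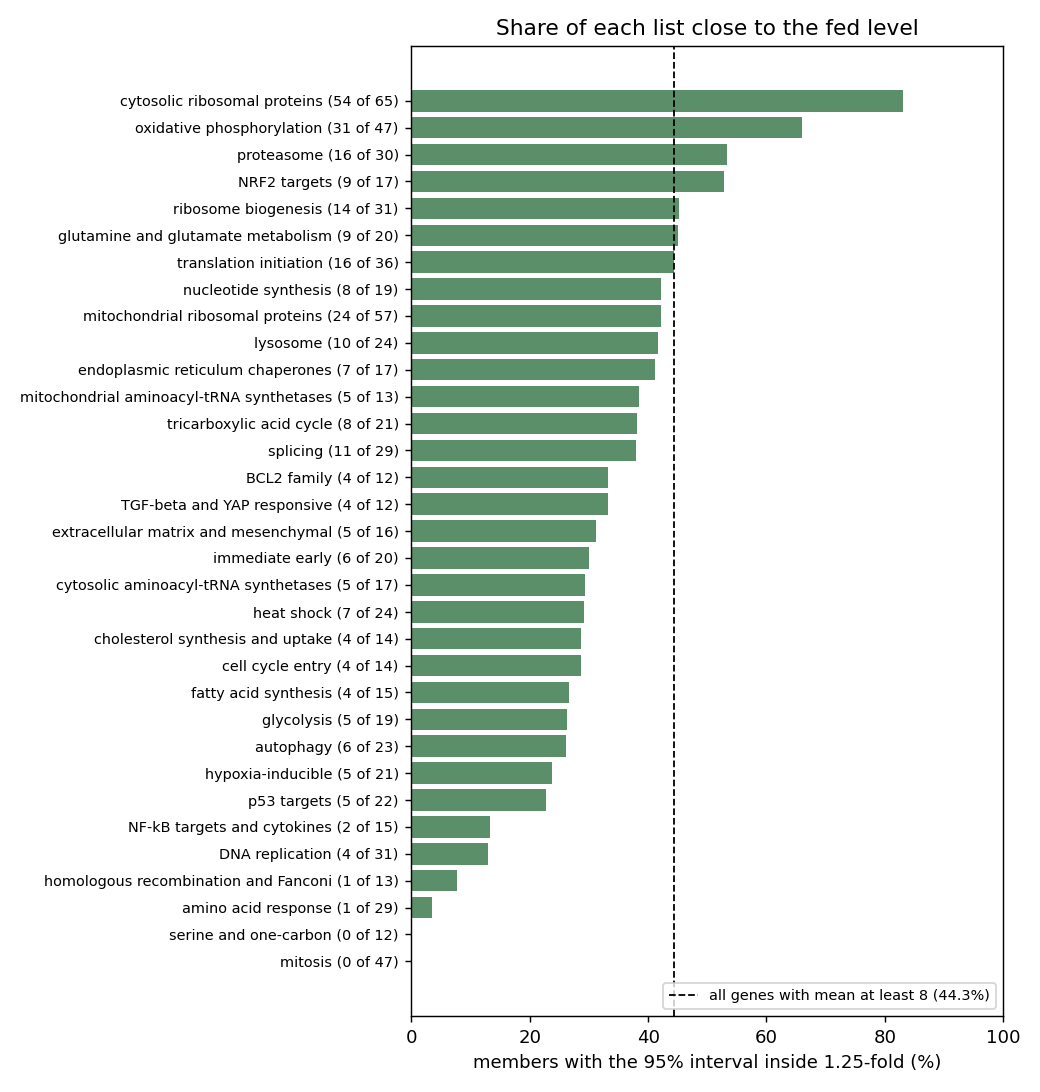
Bars give, for each gene list with at least 12 members of mean level 8 or more, the percentage of those members whose 95% interval lay in the close band around fed monoculture, with counts in parentheses. The dashed line marks the 44.3% of all genes at that level, and the share runs from 0 of 47 for mitosis to 54 of 65 for cytosolic ribosomal proteins.

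Among lists with at least 12 members of mean level 8 or more, the one with the largest share close to fed cells was the cytosolic ribosome. Of 65 cytosolic ribosomal protein genes, 54 had an interval in the close band, with a median difference of 0.03, and 48 were not called. Most sat near the top of the scale, where arrays reach at most 14.22 to 14.36 and differences are compressed: 54 of the 65 had a mean of at least 13, and 51 of those were in the close band. Below 13, 3 of 11 were inside. Over all genes, 76.1% of those at 13 or above were inside, against 43.5% of those from 8 up to 13. The exceptions included RPL22, higher by 0.81, RPL28, higher by 0.48, and RPL29, lower by -0.57. EEF1A1, the elongation factor, read 14.23, 14.28 and 14.23 in fed cells and 14.33, 14.20 and 14.21 in the deprived coculture. Genes that make ribosomes, which spread over a lower range of levels, were higher at 15 of 36 and lower at 4, against 22.3% and 20.7% of all genes.

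Oxidative phosphorylation genes differed by small amounts, none by 1.5-fold. Of the 47 members with a mean of at least 8, 31 were in the close band, against 44.3% of all genes, and of all 50 tested, 5 were higher and 17 lower, against 22.3% and 20.7%. Unlike the ribosomal protein genes, few members sat near the top of the scale, and 6 of the 7 with a mean of at least 13 were in the close band. From 8 up to 13, 25 of the 40 were, against 43.5% of all genes at those levels. The largest differences were those of COX7B, a subunit of cytochrome oxidase, at -0.54, and NDUFB10, a subunit of complex I, at 0.33. Of 31 proteasome genes, 15 were lower and 4 higher, a larger share lower than the 20.7% of all genes, but the falls were small, the largest being -0.46 for PSMD1. In the close band were 16 of 30 proteasome genes, against 44.3% of all genes. Mitochondrial ribosomal protein genes had 24 of 57 inside, which is near the 44.3% of all genes, with 8 higher and 24 lower, against 22.3% and 20.7%. Translation initiation genes had 16 of 36 inside, with 12 higher and 9 lower, and EIF6, a ribosome anti-association factor, was the highest at 0.88.

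A last set of genes was close to fed cells although deprivation alone had shifted them. They are those with an interval in the close band that differed in deprived monoculture by at least 0.8 on the log2 scale, a limit set after the values were seen, so they are described without a test. ATP2B1, a calcium pump of the plasma membrane, had levels of 8.22, 8.26 and 8.09 in fed cells, 9.37, 9.42 and 9.49 in deprived monoculture and 8.37, 8.38 and 8.28 in the deprived coculture. The coculture arrays lay just above the fed ones and far below those of deprived monoculture. TFRC, the transferrin receptor, had levels of 10.64, 10.58 and 10.64, then 11.49, 11.62 and 11.63, then 10.79, 10.72 and 10.67 in the same order, so its coculture arrays too lay just above the fed ones.

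SERTAD1 and BAMBI, a cell cycle regulator and a decoy receptor of TGF-beta signals, had been higher under deprivation alone, with means of 8.31, 9.22 and 8.49 and of 8.45, 9.28 and 8.50. MAP2K3, a kinase that activates p38, had means of 9.06, 9.87 and 9.21. Those that had been lower included CLEC11A, a secreted growth factor, with means of 10.55, 9.64 and 10.48, IVNS1ABP, an actin-binding protein, with 9.53, 8.55 and 9.37, and SRSF7, a splicing factor, with 9.51, 8.69 and 9.64. ADCY3, an adenylate cyclase, had means of 9.32, 8.39 and 9.21, and CCDC14, a centrosomal protein, 9.75, 8.93 and 9.58. Of the 11 genes, SLC2A3 among them, SERTAD1 and CCDC14 were still called against fed cells, at 0.18 and -0.17. Short of that limit, the tubulin TUBA1A read 13.93, 14.05 and 13.95 in fed cells, 13.24, 13.19 and 13.33 in deprived monoculture and 13.84, 13.93 and 13.94 in the deprived coculture. TUBA1B, a close paralogue whose probe may also bind TUBA1A RNA, had means of 13.87, 13.07 and 13.81. Neither is settled as close: the mean of all TUBA1A probes gave a called difference of -0.80, and without the third fed array TUBA1B was called at -0.20.

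**Figure D5:**
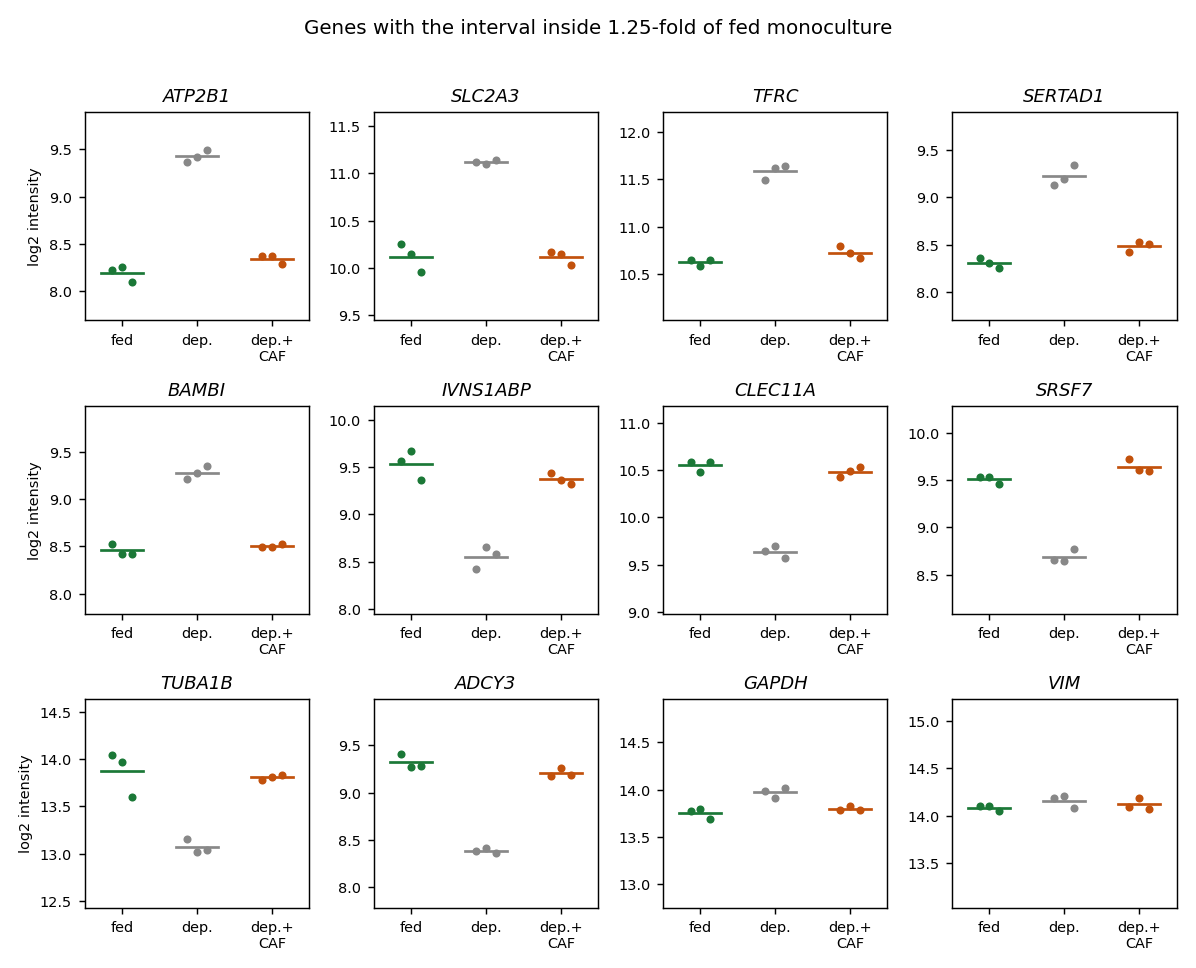
Levels (log2 intensity) of 12 genes whose 95% interval of the difference between deprived coculture and fed monoculture lay in the close band, in each array of fed monoculture, deprived monoculture (dep.) and deprived coculture (dep.+CAF); points are arrays and bars are group means. The coculture points sit at or near the fed points, while for the first 10 genes those of deprived monoculture stand apart.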

How the data were processed

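RNA of 9 HeyA8 samples, 3 per group, was copied into biotin cRNA and read on bead arrays made by Illumina, according to the labels' protocols. The deposited log2 values were made by the authors with the lumi package, per the submitters' processing notes. The sources used here do not give lumi's version or settings, how background was corrected or whether the log2 scale was variance-stabilised, and no detection values were used. All arrays had nearly the same distribution, so the values are relative within an array and a change common to most genes would not show.

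Of 34476 probes, 26366 were annotated to 1 gene symbol, 3 to several and 8107 to no symbol, and 26333 matched a RefSeq gene. Probes without 1 symbol were not used. Among 18354 genes, 5600 had more than 1 probe, and the brightest was taken. Limma 3.58.1 in R 4.3.3 was fitted to all 9 arrays with a mean per group and trended empirical Bayes variances, with p-values adjusted by Benjamini-Hochberg over the 10862 genes. The fit had 6 residual and 13.3 prior degrees of freedom, and the median within-group SD was 0.067. The fit was tested on simulated data. Tables and figures were made in Python 3.11.15 with numpy 2.4.6, pandas 2.3.3 and matplotlib 3.10.9.

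The comparison, the gene lists and the rules were chosen with earlier results of these data known. The rule for names took the 12 largest called rises and falls without overlap of arrays, up to 3 called genes of at least 1.5-fold in each direction and up to 3 bright genes in the close band per list, fixed names, the 5 genes furthest above and below both monocultures, and, among genes at least 4-fold shifted in deprived monoculture, the 5 closest to and furthest from fed cells. It gave 270 names. Other genes in the text, such as ESPL1, BUB3, ATP2B1 and CLEC11A, were named after their values were seen.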

Additional observations from a re-analysis of the deposited data

How the results depend on the processing

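The number of called genes, 4670, stayed within 1.5 times of itself under every alternative run. It was 4677 with robust variances, 4618 without a variance trend, 4662 with arrays centred on their medians, 4663 after a further quantile normalisation, 3728 for genes of mean level 8 or more, 4558 with the mean of a gene's probes, 4427 with no filter on dim probes and 4850 with the 6 arrays of the 2 groups alone. Leaving out 1 array at a time gave 4145 to 4801 called genes, 2135 to 2504 higher, 1965 to 2302 lower, 696 to 714 of at least 1.5-fold, 1074 to 1294 past the 1.2-fold minimum and 2438 to 2752 in the close band. With the replicate number as a block the count was 4563. Same-numbered arrays of the 2 groups correlated in their deviations at 0.166, 0.015 and 0.213, and numbers 1 and 3, but not 2, correlated best with their own number in both groups, which is a hint from the data and not the design, so the numbers were not taken to pair the arrays. Of the results for the 270 named genes, 4723 kept direction and call, 62 gained the call, 63 lost it and 2 reversed. Of the 270 genes, 40 had a change of call under at least 1 alternative. Both reversals came with the mean of all probes of a gene: BANF1 at -0.2373 (adjusted p = 0.00326) and PSMA6 at 0.1506 (adjusted p = 0.0327), neither of which was called by its brightest probe, and the cause was not tested. The floor near 7.4 limits dim genes, and 4761 of the genes tested had a mean under 8.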
